A study of Mus musculus with 8 samples.

Results

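Transcript levels of 10 genes of the Notch pathway were followed across 8 single-colour arrays of differentiating mouse embryonic stem (ES) cells and embryonic brain and eye. The genes were the ligand genes Dll1, Dll3 and Jag1, the receptor genes Notch1, Notch2 and Notch3, and the genes of the basic helix-loop-helix factors Hes1, Hes5, Hes6 and Hey1. They were found by name among the probes that are not controls, which gave 14 of the 55419 probes measured on all arrays and 10 of 34541 gene names. Every one of the 10 was well above background on all 8 arrays at its brightest probe, which for Notch1 carries a repeat described below. The dimmer second probes of Notch1 and Dll1 were not well above background on every array.

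Notch signalling passes between touching cells. A ligand of the Delta-like or Jagged family on one cell binds a Notch receptor on its neighbour, proteases then free the receptor's intracellular domain, and this domain joins the DNA-binding protein RBPJ to switch on genes of the Hes and Hey repressors. In the developing brain and retina these repressors hold progenitors back from becoming neurons, while cells that start to differentiate make Delta-like ligands that act on their neighbours.

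The arrays covered 5 cultures and 3 tissues, with 1 array for each of the 8 groups. The sorted populations were of K/l-EB5, an ES line (male, 129/Ola background) in which green fluorescent protein reports Rax, a homeobox gene of the eye field and hypothalamus. They were differentiated to neural cells and received the Wnt inhibitor IWR-1-Endo at 5 µM from day 3 in vitro. Activin-A at 10 ng/ml or SAG, an agonist of the Hedgehog pathway, at 100 nM followed 12 h later, and cells with and without the RAX::GFP signal were separated at day 10. These populations are called RAX-positive and RAX-negative cells after activin or after SAG. The Wi control was the male ES cell line E14Tg2A, also of 129/Ola background and at day 10, with the Wnt inhibitor alone and no sort named, so it differs from the sorted cells in line and handling as well as in treatment. Eye, diencephalon with hypothalamus, and cortex were taken from 3 Sv129s6 embryos at embryonic day 12.5. Each array carried the combined RNA of 3 sets of experiments, so no group had a replicate array.

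Levels are given as relative signal, the multiple of the 75th percentile of all probe signals on the same array, and are compared between arrays for 1 probe at a time. Between 2 arrays, a difference is called where it was at least 1 in log2 size and the brighter of the spots was well above background. This is a rule of size, with no p-value. The scanner software's error of a log2 difference was 0.20 (median standard error), which covers the reading of the arrays and not the spread between cultures or embryos. All genes whose brighter spot passes that background call are the detected genes of a comparison. Since every member was well above background on both arrays at its brightest probe, the share called among genes detected on both is given too. In all these bulk samples, fewer cells of a type and less RNA per cell cannot be told apart.

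The arrays differed in depth, with 59.5% to 79.3% of spots well above background. All 4 arrays in column 1 of slide 1 (RAX-positive cells of both treatments, eye and diencephalon/hypothalamus) had 70.5% to 79.3%, and the 3 in column 2 (RAX-negative cells of both treatments and cortex) had 59.5% to 66.4%. The RAX gate cannot be told apart from the slide column, nor activin against SAG from the position in the column, and the Wi control was alone on slide 2. Eye against cortex cannot be told apart from the slide column either. Rax itself, the gene of the sort, was 8.96-fold higher in RAX-positive than in RAX-negative cells after activin and 5.23-fold higher after SAG. Eye tissue had lens transcripts, with a summed relative signal of 549 for the 8 genes of a lens list, against 0.289 to 2.24 on the other arrays. Red blood cell transcripts summed to 684 in eye, 405 in diencephalon/hypothalamus and 680 in cortex, against 0.0707 to 0.146 in the cultures.

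Of the 10 genes, 8 matched a promoter entry of RefSeq (GRCm38.p6), and Hes1 and Hey1 had no entry. The 250 bases before each start were searched on both strands for TGGGAA, the core of the site that RBPJ binds. Hes5 was the single gene with a match. Its promoter, at chr4:154960673-154960922 on the plus strand, held the core 226 and 82 bases before the start, and 21.6% of 32851 RefSeq promoters held at least 1 match while 2.77% held at least 2. The window before the upstream start of Dll1, at chr17:15376933-15377182 on the minus strand, held none. The Hes5 and Dll1 windows are shown because the levels of these genes followed each other most closely over the arrays, with the core in capitals where present.
Hes5 promoter: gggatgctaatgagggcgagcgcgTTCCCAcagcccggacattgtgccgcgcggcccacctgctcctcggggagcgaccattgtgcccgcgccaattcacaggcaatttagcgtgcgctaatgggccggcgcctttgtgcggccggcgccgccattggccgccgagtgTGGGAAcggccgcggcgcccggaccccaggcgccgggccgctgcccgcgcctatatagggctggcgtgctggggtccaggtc
Dll1 promoter: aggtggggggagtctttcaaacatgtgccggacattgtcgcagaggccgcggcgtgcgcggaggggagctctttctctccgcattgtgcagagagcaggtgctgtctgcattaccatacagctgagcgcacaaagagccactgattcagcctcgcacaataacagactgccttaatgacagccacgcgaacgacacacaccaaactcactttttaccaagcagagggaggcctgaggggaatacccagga
A match describes the letters of the window and is no measure of binding, and the absence of one says nothing about RBPJ. The brighter Notch1 probe and the second Dll3 probe, which lie in coding sequence and carry a result below, are also shown. The Notch1 probe starts at base 5898 of its transcript (chr2:26319440-26319499, mm9, minus strand), and the second Dll3 probe at base 1730 (chr7:29079061-29079120, mm9, minus strand). Capitals in the Notch1 probe mark a run of 4 GAA triplets, which no other probe of the 10 genes carries and whose part in its signal was not tested.
Notch1 probe: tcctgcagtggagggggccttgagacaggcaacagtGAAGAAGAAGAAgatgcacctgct
Dll3 second probe: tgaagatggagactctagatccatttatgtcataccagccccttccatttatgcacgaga

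**Figure D1:**
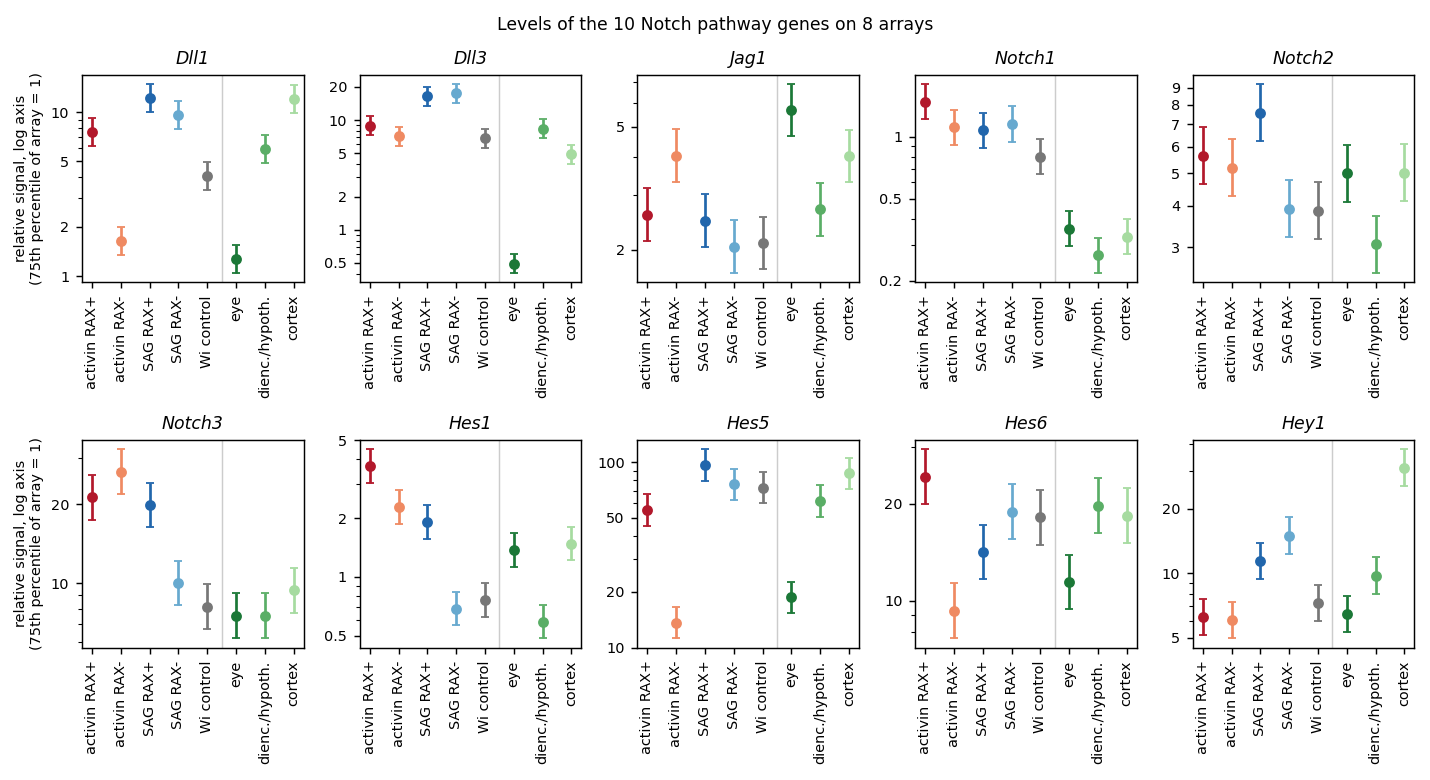
Relative signal (log axis, 75th percentile of the array = 1) of the 10 Notch pathway genes on the 8 arrays, 1 point for each array, with cultures left of the grey line and tissues right of it. Bars are the 95% interval of the scanner software's error, which covers reading only. Dll1 and Hes5 are lowest in RAX-negative cells after activin and in eye, Dll3 is lowest in eye, and Notch1, read from a probe with a GAA repeat, is higher in every culture than in every tissue.

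Dll1, a ligand that activates Notch on neighbouring cells, varied 9.57-fold over the 8 arrays. Its relative signal was 7.53 in RAX-positive and 1.63 in RAX-negative cells after activin, 12.2 in RAX-positive and 9.62 in RAX-negative cells after SAG, and 4.07 in the Wi control. In the tissues it was 1.27 in eye, 5.94 in diencephalon/hypothalamus and 12.0 in cortex. Eye and RAX-negative cells after activin stood lowest, RAX-positive cells after SAG and cortex stood highest, and eye did not differ from RAX-negative activin cells beyond the reading error. The main probe was read from 10 spots on each array (9 on the Wi control), with a standard deviation between spots of 0.0263 to 0.0768 log2.

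Dll3, a divergent ligand that acts inside the cell that makes it and can dampen Notch, had the widest span, 35.5-fold. The relative signal was 8.89 in RAX-positive and 7.08 in RAX-negative cells after activin, 16.4 in RAX-positive and 17.5 in RAX-negative cells after SAG, and 6.83 in the Wi control. It was 0.492 in eye, 8.33 in diencephalon/hypothalamus and 4.86 in cortex. Eye alone stood far below the other arrays, and the SAG cells of both gates stood above them. The second Dll3 probe, in coding sequence, ranged 32.6-fold and was again lowest in eye, at 0.255, and highest in RAX-negative cells after SAG, at 8.31.

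Jag1, a Jagged ligand used by progenitor domains and by vessels, showed less change, 2.77-fold from lowest to highest. It was 2.60 in RAX-positive and 4.04 in RAX-negative cells after activin, 2.49 in RAX-positive and 2.04 in RAX-negative cells after SAG, and 2.10 in the Wi control. Levels of 5.66 in eye, 2.70 in diencephalon/hypothalamus and 4.02 in cortex placed eye highest, 1.40-fold above RAX-negative cells after activin. The order over the arrays was close to the reverse of that of Dll3, with a Pearson correlation of log2 levels of -0.83 over 8 arrays, given as a description.

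Notch1, a receptor of neural progenitors, gave a higher signal in the cultures than in the tissues without overlap at its brighter probe, a pattern that this probe shares with most probes carrying its GAA repeat. The relative signal was 1.48 in RAX-positive and 1.11 in RAX-negative cells after activin, 1.07 in RAX-positive and 1.15 in RAX-negative cells after SAG, and 0.797 in the Wi control. The tissues had 0.358 in eye, 0.266 in diencephalon/hypothalamus and 0.328 in cortex. The lowest culture, the Wi control, was 2.23-fold above the highest tissue, eye, and Notch1 was the single member of the 10 whose cultures and tissues did not overlap. Over all genes that passed background on at least 2 arrays, 9.56% were higher in the cultures without overlap and 4.58% were lower.

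A second Notch1 probe, starting at base 8221, gave another order. It was 0.104 in RAX-positive and 0.0214 in RAX-negative cells after activin, 0.122 in RAX-positive and 0.101 in RAX-negative cells after SAG, and 0.0852 in the Wi control, against 0.0360 in eye, 0.0832 in diencephalon/hypothalamus and 0.0804 in cortex. The value in RAX-negative cells after activin was not well above background, and cultures and tissues overlapped. The separation of cultures from tissues at Notch1 therefore rests on the brighter probe.

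Probes that carry the run of 4 GAA triplets shown in capitals in the brighter Notch1 probe mostly had a like profile. Of 67 other such probes above background on at least 6 arrays, 62 (92.5%) were higher in every culture than in every tissue, against 9.17% of 34169 probes without the run. Their median Pearson correlation with the Notch1 probe over the 8 arrays was 0.92, against 0.20 for probes without the run, and 45 of them (67.2%) were above 0.9, against 1.28%. The signal of the brighter probe cannot be told apart from a signal of the repeat, and Notch1 values below come from this probe unless the second is named. This comparison was chosen after the values were seen.

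**Figure D2:**
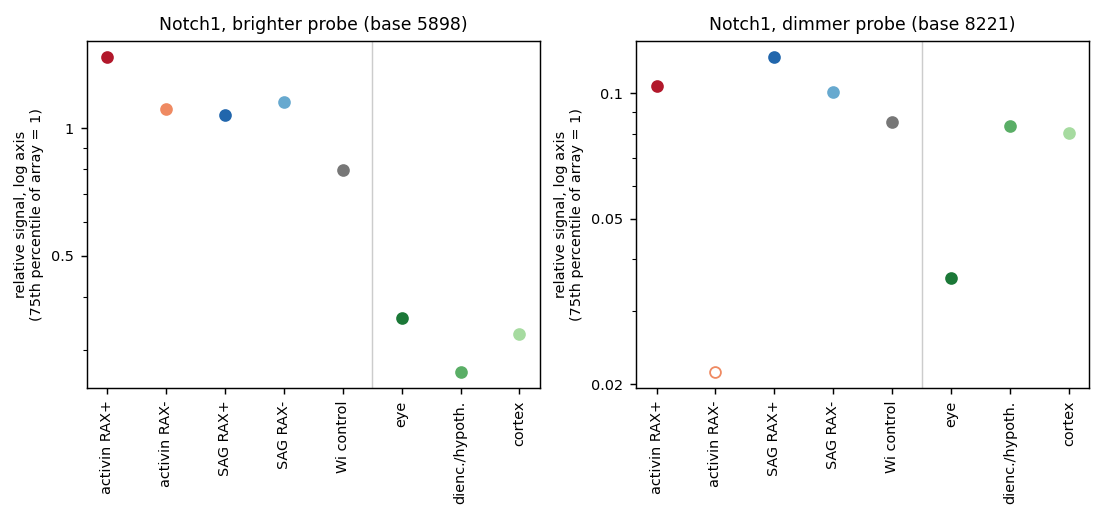
Relative signal (log axis) of both Notch1 probes on the 8 arrays, 1 point for each array and probe. The probe at base 5898 separates the 5 cultures from the 3 tissues, and the probe at base 8221 does not. The open point marks an array where the probe was not well above background.

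Notch2 and Notch3, the other receptors, differed in how much they varied. Notch2 spanned 2.48-fold, with 5.64 in RAX-positive and 5.19 in RAX-negative cells after activin, 7.58 in RAX-positive and 3.92 in RAX-negative cells after SAG, 3.86 in the Wi control, 4.99 in eye, 3.06 in diencephalon/hypothalamus and 5.01 in cortex. RAX-positive cells after SAG were highest, 1.34-fold above RAX-positive cells after activin. Notch3 spanned 3.53-fold, with 21.2 in RAX-positive and 26.6 in RAX-negative cells after activin, 19.8 in RAX-positive and 10.0 in RAX-negative cells after SAG, 8.15 in the Wi control, 7.52 in eye, 7.55 in diencephalon/hypothalamus and 9.40 in cortex. All sorted groups but the RAX-negative cells after SAG thus stood at the top for Notch3, 1.98-fold or more above the remaining arrays, and the neighbours below them did not differ beyond the reading error.

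Hes1 and Hes5, both repressors switched on by Notch in progenitors, had different profiles. Hes1 was 3.70 in RAX-positive and 2.28 in RAX-negative cells after activin, 1.91 in RAX-positive and 0.688 in RAX-negative cells after SAG, and 0.761 in the Wi control, against 1.37 in eye, 0.590 in diencephalon/hypothalamus and 1.48 in cortex. Activin cells were highest and diencephalon/hypothalamus, RAX-negative cells after SAG and the Wi control lowest. Hes5 was 55.2 in RAX-positive and 13.6 in RAX-negative cells after activin, 96.4 in RAX-positive and 75.8 in RAX-negative cells after SAG, and 72.9 in the Wi control, against 18.6 in eye, 61.7 in diencephalon/hypothalamus and 87.0 in cortex. RAX-negative cells after activin and eye stood apart below the other arrays, 2.96-fold or more under them, as they did for Dll1.

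Hes6, which blocks Hes1 and favours neuronal differentiation, spanned 2.61-fold. Its relative signal was 24.2 in RAX-positive and 9.30 in RAX-negative cells after activin, 14.2 in RAX-positive and 18.9 in RAX-negative cells after SAG, 18.1 in the Wi control, 11.4 in eye, 19.7 in diencephalon/hypothalamus and 18.4 in cortex. RAX-positive and RAX-negative cells after activin were at opposite ends of this range. Hey1, a repressor downstream of Notch, was 6.23 in RAX-positive and 6.04 in RAX-negative cells after activin, 11.4 in RAX-positive and 15.0 in RAX-negative cells after SAG, 7.27 in the Wi control, 6.46 in eye, 9.74 in diencephalon/hypothalamus and 31.1 in cortex. Cortex stood 2.08-fold above the next array, and activin cells, eye and the Wi control formed the low end.

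RAX-positive cells after activin had higher levels of Dll1, Hes5 and Hes6 than RAX-negative cells after activin. Dll1 was 4.61-fold higher (log2 difference 2.21, 95% reading interval 1.81 to 2.61), Hes5 4.04-fold (2.02, 1.62 to 2.42) and Hes6 2.61-fold (1.38, 0.98 to 1.78). These were 3 of 10 members, none of them lower, beside 29.4% of all detected genes called in this comparison (23.1% higher and 6.26% lower, or 18.3% higher and 10.3% lower with arrays scaled by their median). Among genes detected on both arrays, as the members were, 12.4% were called. The other ligands did not pass the rule, with log2 differences of 0.33 for Dll3 and -0.64 for Jag1, nor did the receptors, at 0.41 for the brighter Notch1 probe, 0.12 for Notch2 and -0.32 for Notch3. The second Notch1 probe, without the GAA repeat, did pass it and was at least 4.40-fold higher in RAX-positive cells, so the Notch1 probes disagree here. This second probe was dim, at 0.104 in RAX-positive cells and not well above background in RAX-negative cells. Detected olfactory and vomeronasal receptor genes, not looked for in neural cells, had a median log2 difference of 1.95 in the same comparison. Hes1 differed by 0.70 and Hey1 by 0.05. Scaling arrays by their median moved every difference of this comparison by -0.40, which brought Hes6 to 0.98 and Jag1 to -1.03.

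Of 38 other Notch pathway genes on the array, 4 were called higher and 3 lower in RAX-positive cells after activin, with a median log2 difference of 0.12 against 0.21 over all detected genes. Dlk1, a membrane protein related to Delta, was 5.84-fold higher, and Nrarp, a Notch target that feeds back on the pathway, 4.79-fold higher. Heyl, of the Hey family, was at least 4.54-fold lower. The word "at least" marks a dimmer array that was not above background, where the faintest signal that passed background there was used as its level. In a list of 10 proneural and early neuron genes, which hold factors that drive differentiation and switch on Dll1, 5 were higher and 0 lower with a median of 1.01. Its brightest genes were Gadd45g, at 35.6 in RAX-positive and 10.9 in RAX-negative cells, and Insm1, at 16.2 and 3.58 in the same order.

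Other cell types and depth moved with this gate. Transcripts of 8 pluripotency genes summed to 11.3 in RAX-positive and 84.6 in RAX-negative cells after activin, where 0 were called higher and 6 lower, and all 8 were well above background on both arrays. Among them Pou5f1, a defining gene of undifferentiated ES cells, had 0.0959 in RAX-positive and 16.7 in RAX-negative cells. Endoderm and mesoderm genes summed to 1.84 in RAX-positive and 24.5 in RAX-negative cells, where 0 of 7 detected were higher and 7 lower, with Foxa2, an endoderm and floor plate factor, at 1.29 in RAX-positive and 15.9 in RAX-negative cells. The 8 neural progenitor genes summed to 172 in RAX-positive and 102 in RAX-negative cells, with 4 called higher and 1 lower. Genes of olfactory and vomeronasal receptors, not looked for in neural cells, were well above background for 595 of 1348 names in RAX-positive and 158 in RAX-negative cells, and the arrays had 79.3% and 59.5% of all spots above background in the same order. The part of these values in the Notch pathway differences was not tested.

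After SAG, the gate called a different member. Hes1 was 2.78-fold higher in RAX-positive than in RAX-negative cells after SAG (log2 difference 1.47, 95% reading interval 1.07 to 1.87), the single call among 10 members, beside 17.7% of all detected genes (7.16% higher and 10.6% lower, or 9.57% higher and 9.21% lower with arrays scaled by their median) and 11.8% of those detected on both arrays. Notch3 and Notch2 were just under the limit, with log2 differences of 0.98 and 0.95. Dll1 differed by 0.34, Hes5 by 0.35, Jag1 by 0.28, Dll3 by -0.09, Notch1 by -0.10, Hey1 by -0.40 and Hes6 by -0.41. With arrays scaled by their median, which moved this comparison by 0.14, Notch3 and Notch2 passed the limit at 1.12 and 1.09.

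Among the 38 other pathway genes, 1 was higher and 6 were lower in RAX-positive cells after SAG, with a median of 0.05 against 0.06 over all detected genes. Heyl was 10.2-fold lower, Hes3, a Hes repressor of early neural progenitors, at least 8.29-fold lower, and Dtx1, a ubiquitin ligase that modulates Notch, 5.44-fold lower. Of the 10 proneural genes, 1 was higher and 2 were lower. The 8 neuron genes summed to 86.9 in RAX-positive and 168 in RAX-negative cells after SAG, with 0 higher and 3 lower. Pericyte and mesenchyme genes summed to 0.559 in RAX-positive and 11.1 in RAX-negative cells, with 6 and 7 of 8 well above background. Their part in the pathway values was not tested.

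**Figure D3:**
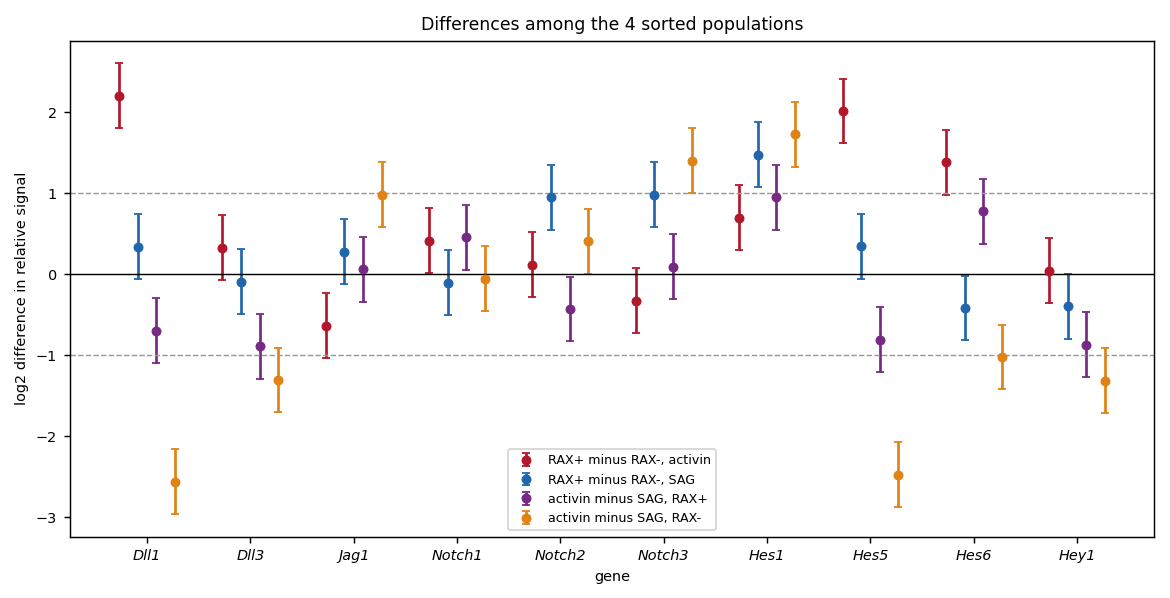
Log2 difference of each of the 10 genes in the 4 comparisons among sorted cells, with the 95% interval of the reading error and dashed lines at the size limit of 1. Dll1 and Hes5 lie beyond the limit in RAX-positive against RAX-negative cells after activin and, on the other side, in RAX-negative cells after activin against SAG.

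The gate differences were unlike between treatments for part of the genes. The gate difference after activin minus that after SAG was 1.86 log2 for Dll1, 1.80 for Hes6 and 1.67 for Hes5, and -1.31 for Notch3, with a reading error of 0.29. No replicate array exists to test this. A limma fit of gate plus added factor on the 4 sorted arrays leaves 1 residual degree of freedom. That residual is the same difference between the gate differences after activin and after SAG. The standard errors and p-values of the fit, moderated over genes, rest on it and not on a spread between replicates. Of 26403 genes, 0 passed an adjusted p of 0.05 for the gate (1938 at an unadjusted p under 0.05), and 0 passed for activin against SAG (3612 unadjusted), which is 0.0% in each case. Among the members, Hes1 had the smallest limma adjusted p for the gate, 0.683, with a log2 difference of 1.09 (standard error 0.36). For activin against SAG, Hes1 was 1.34 (0.36, limma adjusted p = 0.349) and Dll3 -1.10 (0.31, limma adjusted p = 0.354), and the other members had a limma adjusted p of 0.354 to 0.993.

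In RAX-negative cells, 7 of 10 members were called between activin and SAG, and 5 with arrays scaled by their median. Dll1 was 5.89-fold lower after activin than after SAG (log2 difference -2.56), Hes5 5.55-fold lower (-2.47), Hey1 2.48-fold lower (-1.31), Dll3 2.47-fold lower (-1.30) and Hes6 2.03-fold lower (-1.02). Hes1 was 3.31-fold higher (1.73) and Notch3 2.65-fold higher (1.40). Over all detected genes 33.7% were called (14.2% higher and 19.5% lower), and 24.8% of those detected on both arrays, beside 2 higher and 5 lower of the 10 members. Scaling arrays by their median moved every difference of this comparison by 0.34, which brought Dll3 and Hey1 to -0.97 and Hes6 to -0.68, under the limit, and Jag1 to 1.32, past it. The members then stood at 3 higher and 2 lower, beside 23.8% higher and 14.8% lower of all detected genes. Jag1 was otherwise under the limit, at 0.98 as reported, and Notch2 at 0.41 and the brighter Notch1 probe at -0.06 were not called.

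The second Dll3 probe gave -1.31 in this comparison, close to the main probe. The second Notch1 probe was at least 4.26-fold lower after activin, unlike the brighter one. Of the other pathway genes, 2 were higher and 6 lower of 37 detected, with a median of -0.18 against 0.05 over all detected genes. Dner, a Delta-like membrane protein of neurons, was 8.77-fold lower after activin, Dll4, a further activating ligand, at least 7.43-fold lower and Mfng, a fringe enzyme that modifies Notch receptors, 3.82-fold lower. Of 10 proneural genes, 0 were higher and 7 lower, with a median of -2.63. Pluripotency genes summed to 84.6 in RAX-negative cells after activin and 8.67 after SAG, and neuron genes to 61.0 after activin and 168 after SAG. Of the 8 neuron genes 0 were higher and 7 lower, with a median of -3.11, while Stmn2, a tubulin-binding protein of neurons, made up 44.7 of the sum after activin and 46.0 of that after SAG. Endoderm and mesoderm genes summed to 24.5 after activin and 11.3 after SAG, with 6 of 7 detected higher and 0 lower and a median of 3.73. Foxa2, an endoderm and floor plate factor, made up 15.9 of the sum after activin and 10.8 of that after SAG. Pigment cell genes had 5 of 6 higher and 0 lower, with low sums of 1.34 after activin and 0.412 after SAG. Whether these populations set the Notch pathway values was not tested.

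In RAX-positive cells, activin against SAG put 0 of 10 members past the limit, beside 25.3% of all detected genes (18.7% higher and 6.58% lower, or 14.4% higher and 9.28% lower with arrays scaled by their median) and 17.5% of those detected on both arrays. The log2 differences of activin minus SAG were -0.89 for Dll3, -0.87 for Hey1, -0.81 for Hes5 and -0.69 for Dll1, and 0.95 for Hes1 and 0.78 for Hes6. Notch1 differed by 0.46, Notch2 by -0.43, Notch3 by 0.10 and Jag1 by 0.06. The count of 0 depended on the processing. Dll3 lay past the limit in 4 other settings, at -1.07 to -1.10. Hey1 did so under scaling by the median (-1.07) and quantile scaling (-1.05), and Hes5 did so narrowly under scaling by the median, under normexp background with quantile scaling (-1.04) and in the authors' values (-1.03). Among the 38 other pathway genes 6 were higher and 1 lower, with a median of 0.02 against 0.29 over all detected genes. These included Dner, 6.96-fold lower, Hes3, at least 4.18-fold higher, and Hey2, of the Hey family, 3.54-fold higher. Hes3 was dim, at 0.0744 after activin and not well above background after SAG. Of the 10 proneural genes 3 were higher and 3 lower, and the neuron genes summed to 30.5 after activin and 86.9 after SAG, with 0 higher and 7 lower. Endoderm and mesoderm genes had 5 of 7 detected higher and 0 lower, with low sums of 1.84 after activin and 0.833 after SAG. Pigment cell genes had 5 of 6 higher and 0 lower, with sums of 1.67 and 0.533. Of 620 detected olfactory and vomeronasal receptor genes, 319 were higher and 21 lower, with a median of 1.02. The part of depth and of these cell types in the members' values was not tested.

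Each sorted population was also set against the Wi control, so these 4 comparisons share that array. RAX-positive cells after activin were higher for Hes1 (4.86-fold, log2 difference 2.28) and Notch3 (2.60-fold, 1.38), 2 of 10 members, beside 44.1% of all detected genes called (30.0% higher and 14.1% lower, or 24.0% higher and 17.6% lower with arrays scaled by their median). RAX-negative cells after activin were higher for Notch3 (3.26-fold, 1.70) and Hes1 (2.99-fold, 1.58) and lower for Hes5 (5.34-fold, -2.42) and Dll1 (2.49-fold, -1.32), 4 of 10 members, beside 40.3% of all detected genes called (18.9% higher and 21.4% lower). Hes6 was just under the limit there, at -0.96, and past it in 3 other settings, down to -1.23. Jag1, at 0.94, passed it under scaling by the median (1.11). The second Notch1 probe was at least 3.60-fold lower than in the Wi control.

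RAX-positive cells after SAG were higher than the Wi control for Dll1 (2.99-fold, 1.58), Hes1 (2.51-fold, 1.33), Notch3 (2.43-fold, 1.28) and Dll3 (2.41-fold, 1.27), 4 of 10 members, beside 40.1% of all detected genes called (20.8% higher and 19.3% lower). RAX-negative cells after SAG were higher for Dll3 (2.56-fold, 1.36), Dll1 (2.36-fold, 1.24) and Hey1 (2.06-fold, 1.04), 3 of 10 members, beside 34.5% (17.4% higher and 17.1% lower). Among genes detected on both arrays, 27.1% to 34.9% were called in these 4 comparisons, so the counts of members are near the background. Hey1 has a single probe, so the mean of all probes repeats its reported value. In every other setting Hey1 was under the limit, down to 0.87.

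The other 38 pathway genes had 7 higher and 6 lower in RAX-positive and 3 higher and 5 lower in RAX-negative cells after activin against the Wi control. After SAG they had 9 higher and 9 lower in RAX-positive and 5 higher and 2 lower in RAX-negative cells. Dlk1 was 10.7-fold higher in RAX-positive cells after activin and 10.4-fold higher in RAX-positive cells after SAG than in the Wi control, and Dner 24.7-fold lower in RAX-positive cells after activin. Pluripotency genes summed to 6.35 to 84.6 in the 4 sorted populations, against 167 in the Wi control, where Dppa5a had 131. Neuron genes summed to 30.5 to 168 in the sorted populations, against 183 in the Wi control, and endoderm and mesoderm genes to 0.833 to 24.5, against 9.24.

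The levels of Dll1 and Dll3 were lower in eye than in the brain tissues. Eye and cortex lay in different slide columns, with 75.0% and 62.5% of spots well above background, and the part of this in their differences was not tested. Dll3 was 9.87-fold lower in eye than in cortex (log2 difference -3.30, 95% reading interval -3.70 to -2.90) and 16.9-fold lower than in diencephalon/hypothalamus (-4.08, -4.48 to -3.68). Dll1 was 9.43-fold lower than in cortex (-3.24) and 4.66-fold lower than in diencephalon/hypothalamus (-2.22). The second Dll1 probe, very dim in all 3 tissues and not well above background in cortex, gave no call in either comparison. Hes5 followed, 4.66-fold lower than in cortex (-2.22) and 3.31-fold lower than in diencephalon/hypothalamus (-1.73), and Hey1 was 4.81-fold lower than in cortex (-2.27) and differed by -0.59 from diencephalon/hypothalamus.

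Jag1 and Hes1 stood the other way in eye. Jag1 was 2.10-fold higher than in diencephalon/hypothalamus (1.07, and 0.92 with arrays scaled by their median) and differed by 0.49 from cortex, and Hes1 was 2.33-fold higher than in diencephalon/hypothalamus (1.22) and differed by -0.11 from cortex. Against cortex, 0 of 10 members were higher and 4 lower, beside 26.3% of all detected genes called (18.5% higher and 7.78% lower, or 12.4% higher and 20.9% lower with arrays scaled by their median) and 18.6% of those detected on both arrays. Against diencephalon/hypothalamus, 2 were higher and 3 lower, beside 20.8% of all detected genes called (12.1% higher and 8.65% lower) and 17.2% of those detected on both arrays. Levels of the 3 receptors differed by 0.13, -0.00 and -0.32 from cortex for Notch1, Notch2 and Notch3, and by 0.43, 0.71 and -0.00 from diencephalon/hypothalamus. The second Notch1 probe went the other way, 2.23-fold lower in eye than in cortex (-1.16) and 2.31-fold lower than in diencephalon/hypothalamus (-1.21). Hes6 differed by -0.68 from cortex (-1.15 with arrays scaled by their median) and -0.79 from diencephalon/hypothalamus.

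Of the other pathway genes, 4 were higher and 5 lower of 37 in eye against cortex, and 2 were higher and 8 lower of 38 against diencephalon/hypothalamus. Dner was 12.0-fold lower than in cortex and 27.8-fold lower than in diencephalon/hypothalamus, and Mfng 4.99-fold and 5.40-fold lower in the same order. Dll4, unlike Dll1 and Dll3, was 2.82-fold higher in eye than in cortex and 2.39-fold higher than in diencephalon/hypothalamus. Of 10 proneural genes, 1 was higher and 7 were lower in each comparison. The higher one was Atoh7, at 37.6 in eye, 0.306 in diencephalon/hypothalamus and 0.142 in cortex. The list summed to 52.4, 72.9 and 75.9 in the same order, so Atoh7 made up most of the sum in eye. The neuron genes summed to 19.9 in eye, 217 in diencephalon/hypothalamus and 96.5 in cortex, and the neural progenitor genes to 91.5, 213 and 254 in the same order. Pericyte and mesenchyme genes summed to 52.9 in eye, 43.2 in diencephalon/hypothalamus and 35.2 in cortex. Pigment cell genes summed to 145 in eye, 0.910 in diencephalon/hypothalamus and 18.9 in cortex, and all 6 were called higher in eye in both comparisons. In cortex, the gene Dct alone made up 18.3 of the sum. The part of lens, pigment cells, blood and mesenchyme in the eye values was not tested.

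RAX-positive cells after activin had more of most members than eye. Of the 10, 7 were higher and 1 was lower, beside 34.1% of all detected genes called (23.5% higher and 10.7% lower) and 25.2% of those detected on both arrays. Dll3 was 18.1-fold higher (4.17), Dll1 5.92-fold (2.56), Notch1 4.13-fold (2.05), Hes5 2.96-fold (1.57), Notch3 2.82-fold (1.50), Hes1 2.70-fold (1.43) and Hes6 2.12-fold (1.09). Jag1 was 2.18-fold lower (-1.12), Notch2 differed by 0.18 and Hey1 by -0.05. The second Dll3 probe gave 3.99, and the second Notch1 probe, without the GAA repeat, gave 1.53. That Notch1 probe was dim, at 0.104 against 0.0360 in eye. Of 648 detected olfactory and vomeronasal receptor genes, 419 were called higher and 30 lower in this comparison, with a median of 1.98. Hes6 has a single probe, so the mean of all probes repeats its reported value. In every other setting Hes6 was under the limit, down to 0.70.

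Of the 38 other pathway genes, 8 were higher and 3 lower here. Heyl, which in tissue marks the walls of vessels, was at least 61.6-fold lower in RAX-positive cells after activin than in eye, and it had 1.01 in eye, 1.01 in diencephalon/hypothalamus and 1.52 in cortex, against 0.0101 to 0.206 in the cultures. Dlk1 was 12.3-fold higher and Hes3 at least 9.49-fold higher. Pericyte and mesenchyme genes, all 8 well above background in each tissue, summed to 35.2 to 52.9 in the tissues, against 0.559 to 15.2 in the cultures, and their part in these values was not tested.

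RAX-positive cells after SAG had 5 of 10 members higher and 0 lower than diencephalon/hypothalamus, beside 32.2% of all detected genes called (18.8% higher and 13.4% lower) and 26.3% of those detected on both arrays. These were Notch1 (4.03-fold, 2.01), Hes1 (3.24-fold, 1.70), Notch3 (2.63-fold, 1.39), Notch2 (2.48-fold, 1.31) and Dll1 (2.05-fold, 1.04). The second Notch1 probe, without the GAA repeat, gave 0.56, so the Notch1 call rests on the brighter probe. Dll1 passed the limit in 2 of 6 settings, with 0.91 the smallest. Dll3 was just under the limit at 0.98, Hes5 differed by 0.64, Hey1 by 0.22, Jag1 by -0.12 and Hes6 by -0.48. The neuron genes summed to 86.9 in RAX-positive cells after SAG and 217 in diencephalon/hypothalamus, and 0 were called higher and 5 lower. Of 37 detected other pathway genes, 3 were higher and 6 lower, with Heyl 50.0-fold lower, Dtx1 6.97-fold lower and Hey2 3.25-fold lower.

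**Figure D4:**
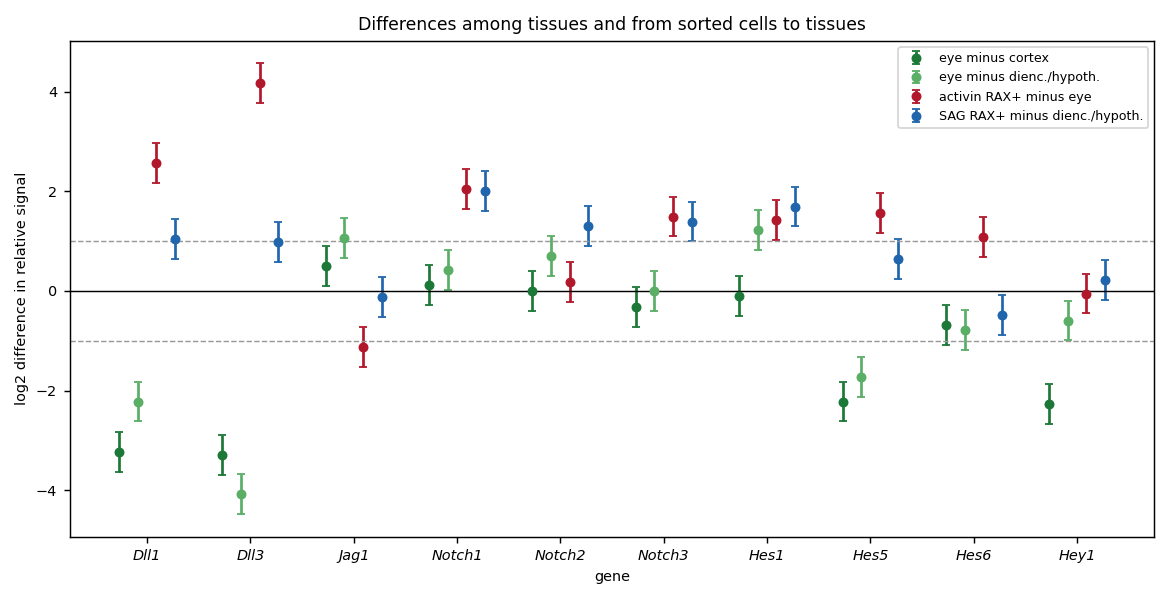
Log2 difference of each of the 10 genes in the 4 comparisons that include a tissue, with the 95% interval of the reading error and dashed lines at the size limit of 1. Dll1, Dll3 and Hes5 are lower in eye than in both brain tissues and higher in RAX-positive cells after activin than in eye.

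Over the 8 arrays, the log2 levels of Dll1 and Hes5 had a Pearson correlation of 0.92 (Spearman 0.88), the highest among the 45 pairs of members. Without RAX-negative cells after activin and eye, the arrays farthest from the median of Dll1, it was 0.59 (Spearman 0.77) over 6 arrays, so the Pearson value rests in part on these arrays. Notch2 and Hes1 had 0.81, Notch3 and Hes1 0.80, and Hes5 and Hes6 0.76. The points share their arrays, scaling and cell mixtures, and these values are a description.

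**Figure D5:**
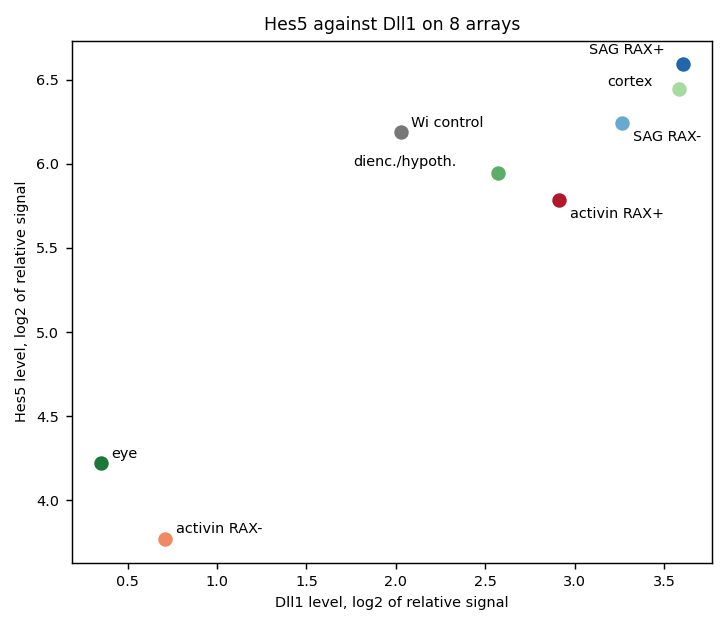
Level of Hes5 (log2 of relative signal) against that of Dll1 on the 8 arrays, 1 labelled point for each array. RAX-negative cells after activin and eye are low for both genes, apart from the other 6 arrays.

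Genes whose profile over the 8 arrays was most like that of a member were sought among 8595 genes with a range of at least 2 log2 units. Qk, an RNA-binding protein of glia, Fam181a and Insm1, a zinc-finger factor of newly born neurons, followed Hes5 (0.993, 0.976 and 0.967). Celsr2, a cadherin of cell polarity, and Nat8l, an enzyme of neuronal acetylaspartate synthesis, followed Dll1 (0.967 and 0.957). Fezf1, a forebrain zinc-finger factor, and Ephb1, an ephrin receptor, followed Dll3 (0.960 and 0.953), along with Car5a (0.962). Fos, an immediate early gene, and Cmya5, a muscle gene, followed the brighter Notch1 probe (0.990 each), where the Cmya5 probe also carries the GAA run and the Fos probe does not. Mum1l1 and Tcf7l1, a Wnt pathway repressor, followed Hes1 (0.939 and 0.935), and Lrrn1, Pcdh19 and Bach2 followed Hey1 (0.972, 0.943 and 0.882). With 8 arrays and so many candidates, values of this size are descriptions of these arrays.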

How the data were processed

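Per the labels, 50 ng of total RNA from each of 5 cultures and 3 tissues was Cy3-labelled and read on 1 Agilent mouse array. The scanner tables deposited by the authors hold the intensity of each spot, background-subtracted and detrended by Feature Extraction 10.7.3.1 per the file headers, while the submitters' processing notes name version 9.1 and limma. Probe positions are on mm9 per the file headers. The value table deposited by the authors holds log2 values with column medians of 6.36 to 6.40, with background and normalization steps not given in the sources used here.

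Spots of controls and outlier flags were removed, repeated spots were averaged, and log2 signal minus the 75th percentile of the array was used. Of 55681 probes, 262 had no usable spot on some array and were left out. Where a gene had several probes, the brightest on average was its main probe. Probe names of the Wi control's file differed for 6422 probes, and 1 dim Dll1 probe is named there by its transcript. The gate and added factor were fitted with limma 3.58.1 in R 4.3.3 (lmFit and eBayes, genes well above background on at least 2 of the 4 sorted arrays, Benjamini-Hochberg adjustment), and the fit was tested on simulated data. Probe letters were searched for the run of 4 GAA triplets of a Notch1 probe, a step added after the values were seen. Alternatives were scaling by the median, quantile scaling, normexp background (offset 50) with quantile scaling, the authors' values, the mean of all probes and other detection filters. With 1 array for each group, the number of arrays limits the precision.

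All 10 members are named in every comparison, with up to 3 of the other pathway genes that had the largest called differences, the brightest genes of other lists, and the 3 genes closest in profile to a member that spans 2 log2 units, of which those with no gene symbol are left out. The members and lists were chosen with earlier results of these data known.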

Additional observations from a re-analysis of the deposited data

Results flagged for a closer look

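Hes6 differed between gates in opposite directions after the treatments. The log2 difference of RAX-positive minus RAX-negative cells was 1.38 after activin and -0.41 after SAG. In activin minus SAG, Hes6 was 0.78 in RAX-positive and -1.02 in RAX-negative cells. Notch2 was -0.43 in activin minus SAG in RAX-positive cells and 0.41 in RAX-negative cells at its main probe. The second Notch2 probe, dim but well above background on all 8 arrays, gave -0.40 and -0.23 in the same order. The change of sign at Notch2 therefore rests on the main probe. Each of these values compares 1 array with 1 array, and the differences between them were not tested.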

How the results depend on the processing

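All 46 called member differences of 120 kept their sign in the 6 settings tried, and 36 passed the size limit in all of them. Part of this was fixed in advance. The 6 settings include the one that made the calls, and the mean of all probes repeats it for genes with a single probe. Scaling by the median adds a constant to each comparison, the largest being -0.46 for eye against cortex, which cannot reverse a called difference. The number of members called in RAX-positive against RAX-negative cells after SAG was 3 with scaling by the median, against 1 as reported. For activin against SAG in RAX-positive cells it was 3 with scaling by the median and 2 with quantile scaling, with normexp background and in the authors' values, against 0. For RAX-positive cells after activin against the Wi control it was 1 with normexp background and in the authors' values, against 2, since Notch3 was 0.93 in both. In the limma fit, scaling by the median gave 654 genes for the gate and 1299 for activin against SAG, where the prior degrees of freedom were infinite, and normexp background gave 16 and 46. Members called under any of these limma settings numbered 0. The mean of all probes, which adds dim second probes, brought Notch1 in RAX-positive cells after SAG against diencephalon/hypothalamus to 1.28, and reduced Dll1 in eye against cortex to -1.47 and in RAX-negative cells after activin against the Wi control to -0.54. For activin against SAG in RAX-negative cells the members stood at 3 higher and 2 lower with scaling by the median, against 2 higher and 5 lower. The cause of the other changes was not tested. No paired analysis was possible because each group has 1 array, so no replicate number is shared, while the limma fit itself sets the gates against each other within each treatment. Leaving out an array of the limma fit would leave 3 arrays for 3 parameters and no residual degree of freedom, so it was not run. Signal over background limits the second probes of Notch1, Notch2 and Dll1.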
